A study of Mus musculus with 2 samples.

Results

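The genes described here are 9 mouse genes of 3 families: the sine oculis homeobox genes Six2, Six4 and Six5, the eyes absent genes Eya1, Eya2, Eya3 and Eya4, and the dachshund genes Dach1 and Dach2. They were chosen by name, and each matched 1 row of the gene tables, so that 9 of the 43346 mouse gene IDs are described. Other sine oculis homeobox genes are not analysed here. RNA was sequenced from the facial prominence, the swellings that form the face, of B6NCrl mouse embryos at 12.5 days of development. The 2 libraries are replicates of 1 group with no treatment or mutation, and the embryos pooled for them, male and female together, numbered 120 for replicate 1 and 88 for replicate 2. The libraries were made from 10 ng of total RNA with added spike-ins. Pools give no spread between single embryos. The design has no contrast between conditions, so levels, ratios and transcripts are described over the 2 libraries and no p-value is given.

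Sine oculis homeobox proteins are homeodomain transcription factors that bind DNA. EYA proteins do not bind DNA themselves: they act as coactivators of these factors and carry a C-terminal domain with phosphatase activity. DACH proteins are nuclear corepressors related to Ski and Sno. The network was first described in the fly eye, and in vertebrates it is known for its part in the cranial placodes, the ectodermal thickenings that form sense organs and sensory neurons, and in muscle precursors, kidney and head mesenchyme.

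The sequences below are coding exons by which transcripts of Dach1, Dach2 and the Eya genes differ, and the isoform values further down refer to them. Some of these transcripts also differ at other positions, such as their ends, so their values do not rest on these exons alone. Letters come from the GENCODE M21 transcripts (build GRCm38, mm10), written 5′ to 3′ on the strand of the gene. Eya4 has a pair of alternative next-to-last exons of 101 bases each, at chr10:23109832-23109932 in Eya4-202 and at chr10:23109971-23110071 in Eya4-201, both on the minus strand. The pair lies 38 bases apart, and capitals mark the 30 bases at which they differ when set side by side without gaps (70.3% identical).
Eya4-202 exon: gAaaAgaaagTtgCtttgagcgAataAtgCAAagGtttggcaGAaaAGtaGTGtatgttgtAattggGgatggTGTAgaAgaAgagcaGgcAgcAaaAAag
Eya4-201 exon: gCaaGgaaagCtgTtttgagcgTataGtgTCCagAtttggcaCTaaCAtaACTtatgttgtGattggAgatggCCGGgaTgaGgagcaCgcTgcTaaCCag

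Eya1-201 and Eya1-203 differ, among other positions, at the start of an exon on the minus strand. At chr1:14270705-14270842 the exon of Eya1-201 is 138 bases long and begins with 15 bases, in capitals, that Eya1-203 lacks.
Eya1-201 exon: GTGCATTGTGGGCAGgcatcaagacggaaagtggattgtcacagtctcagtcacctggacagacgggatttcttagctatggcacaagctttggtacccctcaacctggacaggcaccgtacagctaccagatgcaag

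For Eya3, on the plus strand, the exon at chr4:132670189-132670255 has 67 bases in Eya3-203, and capitals mark the last 40, which Eya3-212 lacks. The exon at chr4:132672896-132673032 has 137 bases and is held by Eya3-203 and skipped by Eya3-212.
Eya3-203 exon of 67 bases: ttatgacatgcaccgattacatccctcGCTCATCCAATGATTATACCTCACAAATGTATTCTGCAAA
Eya3-203 exon of 137 bases: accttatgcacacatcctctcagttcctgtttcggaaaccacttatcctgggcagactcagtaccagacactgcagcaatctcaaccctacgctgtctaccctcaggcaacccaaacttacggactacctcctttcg

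For Dach1, on the minus strand, an exon of 156 bases at chr14:97916393-97916548 is held by Dach1-202 and skipped by Dach1-201. For Dach2, on the plus strand, an exon of 39 bases at chrX:113452458-113452496 is held by Dach2-201 and skipped by Dach2-205. Both lengths are multiples of 3.
Dach1-202 exon: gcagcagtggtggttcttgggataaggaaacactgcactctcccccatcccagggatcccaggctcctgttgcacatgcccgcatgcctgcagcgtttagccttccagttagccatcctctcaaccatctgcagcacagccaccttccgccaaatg
Dach2-201 exon: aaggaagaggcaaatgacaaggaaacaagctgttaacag

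Replicate 1 had 27890681 expected counts in all, and replicate 2 had 39969716. Levels are in TPM, which divides counts by transcript length and scales every library to the same sum, so that genes can be compared. For an effective length of 1000 bases, 3 counts, the limit set by counting error alone, were worth 0.172 TPM (replicate 1) or 0.121 TPM (replicate 2). A transcript that shares reads with others can be listed at 0 with a wider interval. Markers of facial mesenchyme (5 of 5 genes at 1 TPM or more in both libraries, median 113 TPM), surface epithelium (5 of 5, 58.5 TPM), neurons (5 of 5, 54.5 TPM) and myogenic cells (5 of 5, 14.9 TPM) were present. Of 5 inner ear markers, Oc90 alone reached 1 TPM in both libraries. Of 5 genes of kidney progenitors, Osr1 and Cited1 did, and Hoxd11 had under 3 counts in both libraries.

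All 9 genes were expressed. Each reached 1 TPM in both libraries, as did 61.8% of protein-coding genes, and 8 of the 9 had a mean above the protein-coding median of 5.24 TPM. Their order by mean TPM was Eya1, Eya3, Six2, Eya2, Six5, Six4, Eya4, Dach1 and Dach2, from percentile 78.4 to percentile 47.2 of protein-coding genes. The ranges of the 2 library values overlapped between Eya3 and Six2 and between Six4 and Eya4, so the order within these neighbours was not larger than their spread. The other neighbours in the order did not overlap. The 4 Eya genes together had 93.7 and 96.2 TPM in replicates 1 and 2, the 3 sine oculis homeobox genes 56.9 and 52.2 TPM, and the 2 Dach genes 9.96 and 9.99 TPM. The Eya sum was thus 1.74-fold above the sum of these 3 sine oculis homeobox genes (log2 ratio 0.80 ± 0.11, SD, n = 2 libraries) and 9.52-fold above the Dach sum (3.25 ± 0.02). The Eya sum includes Eya3 transcripts not annotated as coding (22.9 and 23.0 TPM in replicates 1 and 2). It also includes Eya1 transcripts under 1000 bases (11.2 and 12.1 TPM). The ratios of sums were not recomputed without them, and other sine oculis homeobox genes are not in the sum. In bulk tissue, fewer cells of a type and less RNA per cell cannot be told apart.

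**Figure D1:**
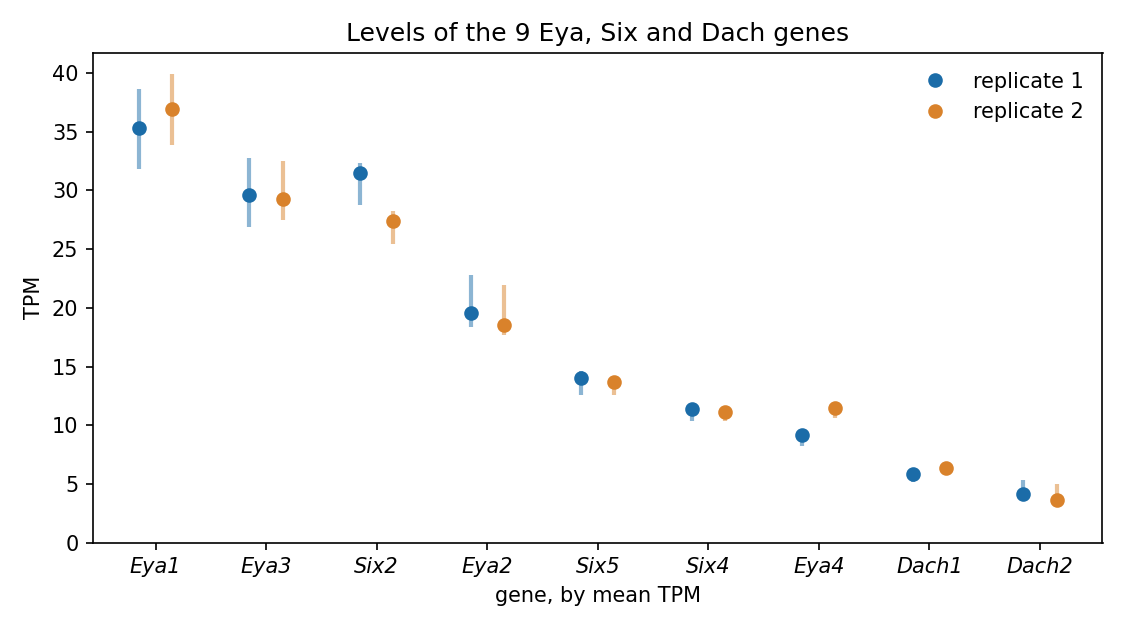
TPM (vertical axis) of the 9 genes in order of mean TPM, as 1 point per library with the deposited credibility interval as a line. The points run from 36.9 TPM for Eya1 in replicate 2 to 3.61 TPM for Dach2 in replicate 2, and the ranges of neighbours overlap for Eya3 with Six2 and for Six4 with Eya4.

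The deposited posterior SD of the gene count, which reflects reads that could be shared between genes, was 0 for 9 of 9 genes in both libraries, as it was for 70.1% of protein-coding genes with a mean of 1 TPM or more. Gene bounds below are those of GENCODE M21 on GRCm38. Counts per gene ran from 197 in replicate 1 and 259 in replicate 2 for Dach2 to 1788 and 2585 for Eya1. GENCODE M21 places 8 other genes within the bounds of the 9, all of them small RNAs, pseudogenes, a lincRNA or an unclassified gene. The largest count among these was 4, for Gm16331 inside Dach1 in replicate 2. No gene overlaps Six2, Six4, Six5 or Eya3.

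Of the 3 sine oculis homeobox genes described here, Six2 had the highest TPM. Six2, which keeps kidney progenitors undifferentiated and is expressed in the mesenchyme of the frontonasal region, is at chromosome 17, 85684277 to 85688274, minus strand. It had 31.5 TPM (1111 counts) in replicate 1 and 27.4 TPM (1371 counts) in replicate 2, or 29.4 ± 2.89 TPM (SD, n = 2). Replicate 1 was the higher. Six5, a neighbour of the myotonic dystrophy kinase gene in the genome, is at chromosome 7, 19094594 to 19098549, plus strand. It had 14.0 TPM in replicate 1 and 13.7 TPM in replicate 2, or 13.8 ± 0.269 TPM. Six4, a factor of muscle and sensory ganglia, is at chromosome 12, 73099609 to 73113456, minus strand. It had 11.3 TPM in replicate 1 and 11.1 TPM in replicate 2, or 11.2 ± 0.148 TPM. Six5 stood above Six4 in both libraries by less than 1 on the log2 scale. Six2 made up 53.9 ± 2.03% of the TPM of these 3 genes, Six5 25.4 ± 1.05% and Six4 20.6 ± 0.981%.

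Eya1, whose human counterpart is mutated in branchio-oto-renal syndrome, was the most abundant coactivator. It is at chromosome 1, 14168954 to 14310235, minus strand, and had 35.3 TPM (1788 counts) in replicate 1 and 36.9 TPM (2585 counts) in replicate 2, or 36.1 ± 1.12 TPM. Eya3, a broadly expressed member, is at chromosome 4, 132638987 to 132724765, plus strand, with 29.6 TPM in replicate 1 and 29.3 TPM in replicate 2 (29.4 ± 0.219 TPM). The transcripts behind the Eya3 level, described below, differ from those of the other genes. Eya2, known from cranial placodes and muscle precursors, is at chromosome 2, 165595032 to 165771727, plus strand. It had 19.6 TPM in replicate 1 and 18.5 TPM in replicate 2 (19.1 ± 0.764 TPM). Eya4, whose human counterpart is mutated in a form of hearing loss, is at chromosome 10, 23102963 to 23350786, minus strand. It had 9.18 TPM (624 counts) in replicate 1 and 11.5 TPM (1102 counts) in replicate 2, or 10.3 ± 1.63 TPM. Replicate 2 was the higher, and Eya4 stood lowest of the 4 Eya genes in each library, with 10.9 ± 1.52% of their TPM against 38.0 ± 0.473% for Eya1, 31.0 ± 0.811% for Eya3 and 20.1 ± 1.18% for Eya2.

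The corepressor genes were the lowest of the 9. Dach1 (chromosome 14, 97786853 to 98169765, minus strand) had 5.86 TPM in replicate 1 and 6.38 TPM in replicate 2, or 6.12 ± 0.368 TPM. Its paralog Dach2 (chromosome X, 113297510 to 113836386, plus strand) had 4.10 TPM in replicate 1 and 3.61 TPM in replicate 2, or 3.86 ± 0.346 TPM. Dach1 was above Dach2 in both libraries and held 61.3 ± 3.56% of their summed TPM.

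Within each family all pairs of genes were compared, and ratios whose mean log2 value exceeded 1 in size, with both libraries on that side of 0, were called. Of 10 ratios, 4 were called. Six2 was 2.61-fold above Six4 (log2 ratio 1.39 ± 0.12, SD, n = 2) and 2.12-fold above Six5 (1.09 ± 0.11). Eya1 was 3.52-fold above Eya4 (1.81 ± 0.18) and Eya3 was 2.87-fold above Eya4 (1.52 ± 0.24). The other 6 were not called. Eya1 over Eya2 came to 0.92 ± 0.10, Eya2 over Eya4 to 0.89 ± 0.29 and Dach1 over Dach2 to 0.67 ± 0.22. Eya2 over Eya3 stood at -0.63 ± 0.05, Six4 over Six5 at -0.30 ± 0.01 and Eya1 over Eya3 at 0.29 ± 0.06. Each of the 6 had the same sign in both libraries, and none of the ratios was tested. For Eya2 over Eya4 the log2 ratio was 1.09 in replicate 1 and 0.69 in replicate 2, so that 1 library alone would have called it.

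Which ratios were called depended on how length and transcripts were counted. In counts not divided by length, 4 ratios were called, of which 1 was among the 4 called in TPM. Six2 then lay under Six4 (-0.26), whose effective length was 6344 bases in replicate 1 against 2020 for Six2, and Six2 over Six5 came to 0.56. Six4 over Six5 likewise turned to 0.82, and Eya3 over Eya4 came to 0.29. The 3 calls gained were Dach1 over Dach2 (1.49), Eya1 over Eya2 (1.27) and Eya1 over Eya3 (1.08). With protein-coding transcripts alone, 3 of the 4 calls were kept, Eya3 lay under Eya4 (-0.66), and calls were gained for Eya1 over Eya3 (2.24) and Eya2 over Eya3 (1.47). The call for Eya1 over Eya4 held in counts not divided by length (1.37) and in coding transcripts (1.57).

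**Figure D2:**
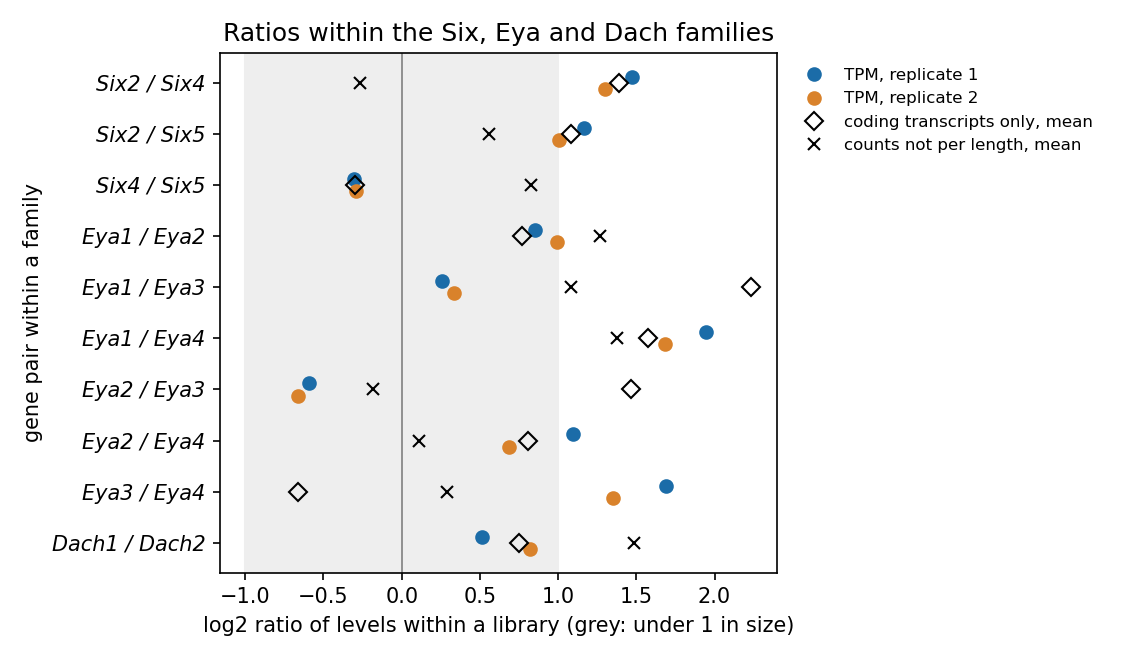
Log2 ratio of 2 genes of a family within each library (points), with the mean over the libraries for protein-coding transcripts only (diamonds) and for counts not divided by length (crosses). The diamonds of the 3 pairs with Eya3 lie far from the TPM points, at 2.24, 1.47 and -0.66.

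The transcript tables hold 46 transcripts of the 9 genes, 45 of them with the same length in GENCODE M21, which gave their names, types and exons. The exception was Eya4-202, whose deposited length of 4091 bases was 5304 in M21, so its exons are those of M21. The leading transcript, the one with the highest TPM, was the same in both libraries for 9 of 9 genes and for 8 of the 8 with more than 1 transcript. Over all protein-coding genes with a mean of 1 TPM or more and at least 2 transcripts, it was the same for 90.5%. The leader of Eya3 was not annotated as protein-coding, and the other 8 were. Over the same protein-coding genes, 9.24% had such a leader.

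Eya3-212, annotated as a processed transcript without a coding sequence, held 47.0% of Eya3 TPM in replicate 1 and 48.5% in replicate 2, and 63.1% and 64.9% of its counts. Its deposited credibility interval was 11.5 to 14.3 TPM around 13.9 TPM in replicate 1, and 12.3 to 14.6 TPM around 14.2 TPM in replicate 2. Eya3-206, a processed transcript of 655 bases, held 24.5% and 24.4% of Eya3 TPM, and the annotated coding transcript Eya3-207, of 1138 bases, 17.7% and 16.7%. The 5 coding transcripts of Eya3 together held 22.7% and 21.4% of its TPM. This coding share was 22.1% of the mean TPM. Over the 9706 protein-coding genes with a mean of 1 TPM or more and at least 2 transcripts, the median was 91.2%. Of those genes, 2.76% had a lower share. In coding transcripts alone Eya3 had 6.72 TPM in replicate 1 and 6.27 TPM in replicate 2, and it then ranked 7 of the 9 genes in place of 2. Eya3-213, which differs from Eya3-212 in the 40 capital bases above, a slightly earlier start and a last exon that runs on to base 132724762, in place of 132722135, was listed at 0 in both libraries. The 40 bases are not a multiple of 3, and neither is the exon of 137 bases, which Eya3-212 and Eya3-213 both lack. The 40 bases alone therefore do not give the reading frame of Eya3-212 against Eya3-203. Among transcripts that span it, the exon of 137 bases was held by 46.8% of TPM in replicate 1 and 45.8% in replicate 2. Most of that TPM came from the short transcripts Eya3-206 and Eya3-207. Of Eya3 counts, Eya3-206 held 8.23% in replicate 1 and 8.18% in replicate 2, and Eya3-207 11.1% and 10.5%. As TPM divides by length, the share does not measure the exon choice alone.

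Eya1 was spread over more transcripts than any other of the 9 genes, with 4 above 10% of its TPM in both libraries. Eya1-201 led with 27.9% in replicate 1 and 32.0% in replicate 2, followed by Eya1-203 with 19.7% and 13.6%. Eya1-207, a fragment of 725 bases, had 12.8% and 18.4%, and Eya1-204, an intron-retaining transcript near the start of the gene, 15.9% and 14.8%. The deposited intervals of Eya1-201 (6.98 to 11.4 TPM in replicate 1, 9.51 to 13.0 TPM in replicate 2) overlapped, as did those of Eya1-203 (4.99 to 8.77 TPM and 3.50 to 6.56 TPM). The exon form with the 15 extra bases was held by 69.8% of the TPM that spans it in replicate 1 and by 80.8% in replicate 2. That TPM includes the fragment Eya1-207, which held 2.76% and 4.08% of Eya1 counts in replicates 1 and 2. The 4 Eya1 transcripts under 1000 bases held 31.6% and 32.8% of its TPM but 6.29% and 6.83% of its counts, as TPM divides by length. In transcripts of at least 1000 bases, Eya1 had 24.2 and 24.8 TPM in replicates 1 and 2 and stood below Six2.

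Eya2 rested on 1 transcript. Eya2-202, which starts at base 165595032, held 93.4% of Eya2 TPM in replicate 1 and 94.1% in replicate 2. The coding transcript Eya2-201, which starts 60266 bases downstream, was listed at 0 in replicate 1 and held 0.81% in replicate 2. Eya4 divided between transcripts with either exon of its alternative pair. These also differ in deposited length, 4091 bases for Eya4-202 and 3488 for Eya4-201, so the shares do not measure the exon choice alone. Eya4-202, with the exon nearer the end of the gene, had 83.1% of Eya4 TPM in replicate 1 and 79.8% in replicate 2, and Eya4-201 16.9% and 20.2%. Their intervals did not overlap in either library (6.57 to 8.15 TPM against 0.943 to 2.20 TPM in replicate 1, 8.16 to 9.69 TPM against 1.67 to 3.00 TPM in replicate 2).

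**Figure D3:**
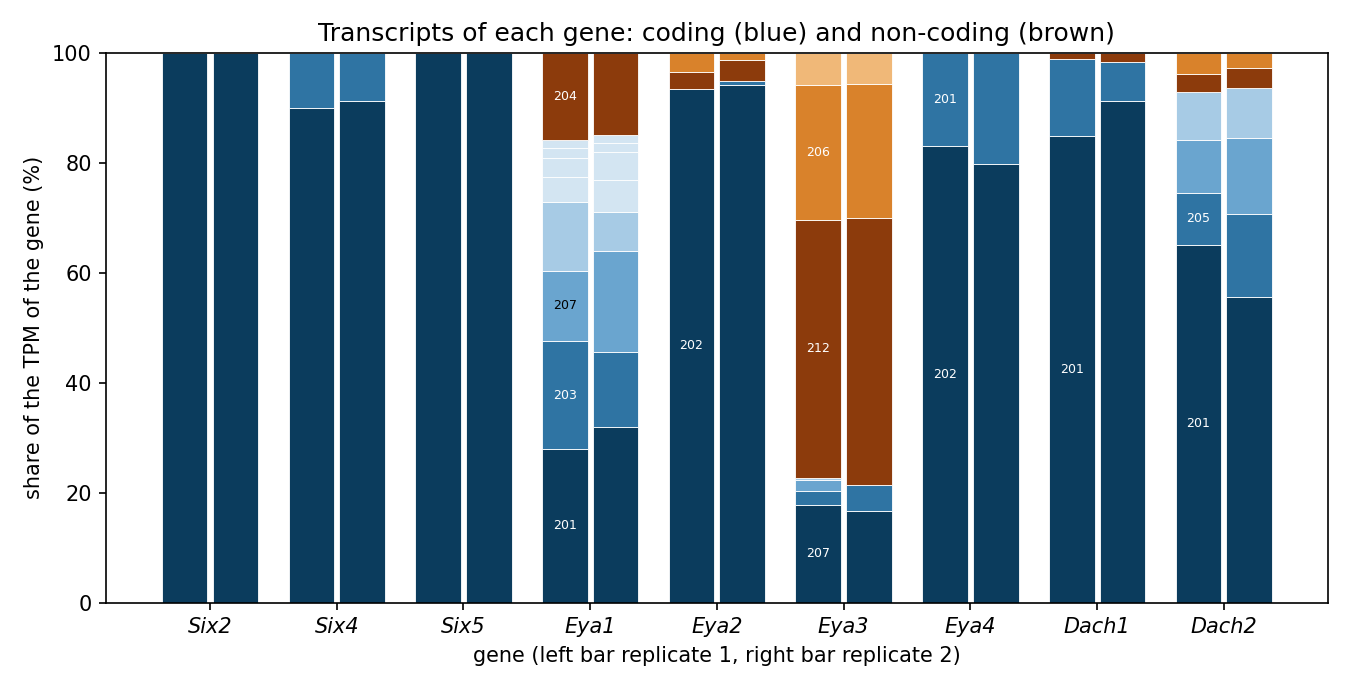
Share of the TPM of each gene (vertical axis, percent) held by each of its transcripts, left bar replicate 1 and right bar replicate 2, with coding transcripts in blue and non-coding ones in brown, the most abundant of each kind darkest. Brown fills 77.3% and 78.6% of the Eya3 bars and 0% of the Six2, Six4, Six5 and Eya4 bars.

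The 3 sine oculis homeobox genes had few transcripts. Six2-202 took all of the Six2 counts in both libraries. The other coding transcript, Six2-201, from which a stretch of the last exon is spliced out, was listed at 0, with an upper bound of 0.839 TPM in replicate 1 and 0.745 TPM in replicate 2. Six4-201 held 90.0% and 91.3% of Six4 TPM, and Six4-202, an annotated coding transcript of 6817 bases, the rest. Six4-202 ends at base 73103441, and Six4-201 at base 73099609. Six5 has 1 transcript.

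Dach1-201 held 84.8% of Dach1 TPM in replicate 1 and 91.2% in replicate 2. The transcript with the exon of 156 bases, Dach1-202, held 14.2% and 7.21%, and its intervals were wide (0.258 to 1.84 TPM in replicate 1, 0.142 to 1.41 TPM in replicate 2) and overlapped between the libraries. Dach2-201 led Dach2 with 65.0% and 55.5% of TPM, from 113 and 120.4 estimated counts. The exon of 39 bases was held by 80.9% of the TPM that spans it in replicate 1 and by 75.0% in replicate 2. Dach2-205, which lacks it, has 5155 bases against 2520 for Dach2-201, so the share does not measure the exon choice alone. Dach2-205 held 9.54% and 15.2% of Dach2 TPM in replicates 1 and 2, but 17.4% and 26.7% of its counts.

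Most of the Dach2 TPM came from transcripts of a pair of starts 742 bases apart. Transcripts from the upstream start, at base 113297510, summed to 0.75 and 0.83 TPM in replicates 1 and 2, or 18.3% and 22.9% of the gene. These sums rest on few reads, with 12.6 and 16.2 estimated counts for Dach2-202 and 16.6 and 29.6 for Dach2-203. The interval of Dach2-203 in replicate 1 ran from 0.0092 to 0.728 TPM. Transcripts from the downstream start summed to 3.18 and 2.69 TPM, or 77.8% and 74.3%. The remaining 3.91% and 2.76% belonged to Dach2-206, a processed transcript that starts 426839 bases downstream of the first start. The 250 bases before each RefSeq start are shown, from the promoter table of RefSeq (GRCm38.p6, plus strand), at chrX:113297260-113297509 and chrX:113298006-113298255. Capitals mark CG pairs, of which there are 14 in the upstream stretch, at 45.6% G and C, and 13 in the downstream stretch, at 67.6% G and C.
Dach2 upstream start: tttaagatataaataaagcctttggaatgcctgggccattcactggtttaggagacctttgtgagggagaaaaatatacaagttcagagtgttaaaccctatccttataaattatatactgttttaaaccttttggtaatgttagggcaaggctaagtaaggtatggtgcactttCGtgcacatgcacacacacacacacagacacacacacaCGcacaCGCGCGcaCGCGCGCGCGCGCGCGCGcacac
Dach2 downstream start: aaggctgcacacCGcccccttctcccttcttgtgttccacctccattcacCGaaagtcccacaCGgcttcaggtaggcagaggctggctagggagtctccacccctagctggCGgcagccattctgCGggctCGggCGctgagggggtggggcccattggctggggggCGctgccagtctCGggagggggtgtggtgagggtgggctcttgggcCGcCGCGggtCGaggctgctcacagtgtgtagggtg

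The promoter table held 10 windows of 300 bases for 7 of the 9 genes, Six2, Six4, Six5, Eya3, Eya4, Dach1 and Dach2. All 10 windows held more CG pairs than the median of 7 over 32851 windows. The MEF3 element TCAGGTTTC, a sequence known to be bound by sine oculis homeobox proteins, was searched on both strands, and 1 of the 10 windows held it, against 0.429% of all windows. That window belongs to Six4, at chr12:73113196-73113495, with the element on the reverse strand at base -99 from the RefSeq start, which lies within the first exon of Six4-201. A match describes the letters only.

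The 2 pools had like levels of the 9 genes. The difference in log2(TPM + 1), replicate 1 minus replicate 2, exceeded 0.5 in size for 0 of 9 genes, and for 2.38% of protein-coding genes with a mean of 1 TPM or more. Differences ran from -0.30 for Eya4 to 0.19 for Six2. For these 2 genes the ratio of library-scaled counts (CPM) lay outside counting error. Eya4 had 23.0 CPM in replicate 1 and 28.5 CPM in replicate 2 (log2 ratio -0.31, 95% exact interval -0.45 to -0.16), and Six2 had 41.0 CPM and 35.4 CPM (0.21, 0.10 to 0.33). The deposited credibility intervals did not overlap either: for Eya4 they ran from 8.21 to 9.63 TPM in replicate 1 and from 10.6 to 11.9 TPM in replicate 2, and for Six2 from 28.8 to 32.4 TPM and from 25.4 to 28.3 TPM. Counting intervals left out equality for 29.8% of protein-coding genes, and the share among the 9 was not above that. Scaled to the spike-ins, the differences came to -0.17 for Eya4 and 0.33 for Six2, where the median of protein-coding genes was itself 0.12, against -0.0039 in TPM. The differences of Eya1 (-0.06), Eya3 (0.01) and Dach1 (-0.11) had no fixed sign across scalings. Those of Dach2 (0.15), Eya2 (0.08), Six5 (0.04) and Six4 (0.02) were positive in each.

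Marker sums also differed between the pools. Summed TPM of the 5 neuronal markers was 364 in replicate 1 and 283 in replicate 2, and that of the 5 myogenic markers 95.1 and 112. Oc90 had 43.4 TPM in replicate 1 and 18.9 TPM in replicate 2. The mesenchymal markers summed to 745 and 771 TPM and the epithelial ones to 262 and 259 TPM. Within the mesenchymal sum, Alx1 (91.9 and 134 TPM) and Twist1 (65.8 and 70.8 TPM) were higher in replicate 2. Msx1, Prrx1 and Pdgfra were higher in replicate 1. The Alx1 difference in log2(TPM + 1) was -0.54. The part of these markers in the Eya4 and Six2 values was not tested.

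**Figure D4:**
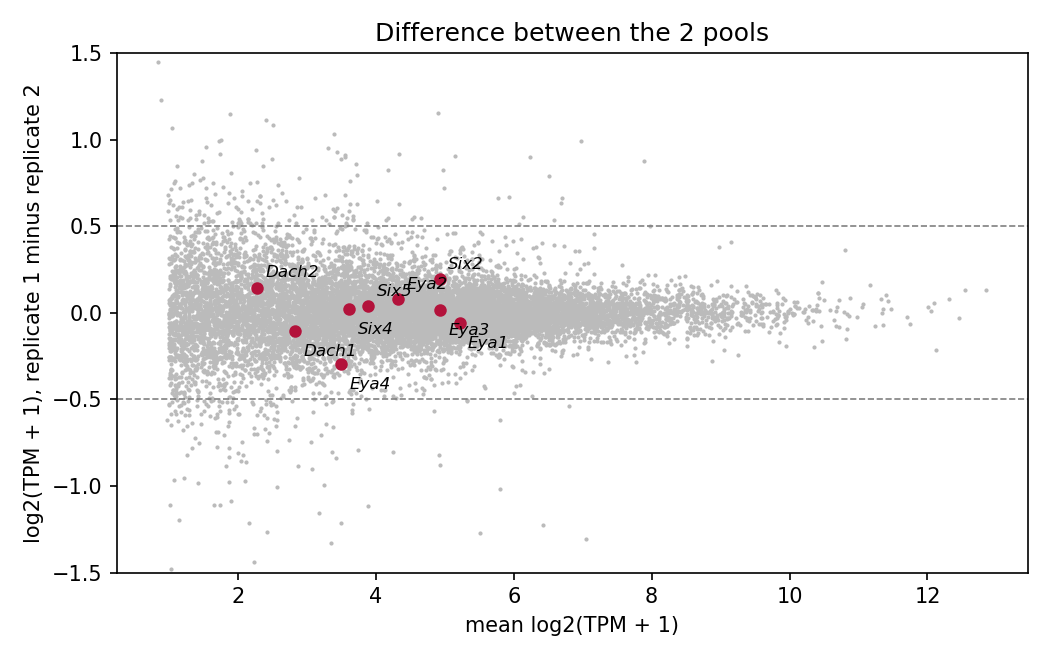
Difference in log2(TPM + 1), replicate 1 minus replicate 2 (vertical axis), against the mean log2(TPM + 1) of 13490 protein-coding genes, with the 9 genes in red and 8 other genes outside the axis. All red points lie inside the dashed lines that mark a difference of 0.5 in size, with Eya4 lowest at -0.30.

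Other genes that work with the network were taken as 5 lists of 40 genes in all. In both libraries 35 of them had at least 1 TPM, as did 61.8% of protein-coding genes, whose median was 5.24 TPM. The lists were chosen with earlier results of these data known, so these counts are not a test of the network. Among cofactors and corepressors 12 of 12 did, with a median of 41.2 TPM. The corepressor Ncor1 (165 and 154 TPM in replicates 1 and 2), the histone deacetylase Hdac3 (135 and 134 TPM) and Mcrs1 (124 and 123 TPM) were highest. The Dach-related Ski (13.9 and 14.6 TPM) and Sobp, named for binding sine oculis proteins (6.35 and 5.58 TPM), were lowest. The corepressors Ncor1 and Hdac3, with which DACH proteins act, thus stood above Dach1 and Dach2 in both libraries.

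Of 4 Pax genes, which work upstream of or beside the network in different organs, 2 reached 1 TPM in both libraries. Pax3, a gene of neural crest, muscle precursors and the ophthalmic placode, had 23.5 and 30.9 TPM, and Pax6, of the lens and nasal placodes, 11.3 and 17.1 TPM. The otic and kidney genes Pax2 (0.46 and 0.78 TPM) and Pax8 (0.22 and 0.24 TPM) were low. Of 12 genes of placodes and the neurons they form, 11 reached 1 TPM in both libraries, with a median of 7.87 TPM. Dlx5 (84.4 and 57.1 TPM), which facial mesenchyme also expresses, Isl1 of sensory and motor neurons (46.0 and 36.9 TPM) and Gata3 of the otic placode (19.6 and 18.6 TPM) led. Foxi3 of early placodal ectoderm (1.12 and 1.37 TPM) had the lowest mean.

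Of 9 genes reported as targets of the network's proteins in other tissues, 7 reached 1 TPM in both libraries, with a median of 52.3 TPM. Igfbp5, which binds insulin-like growth factors (118 and 124 TPM), the cell cycle gene Ccnd1 (106 and 126 TPM) and the transcription factor gene Jun (92.8 and 97.1 TPM) were highest. Gdnf, the kidney target of Eya1 and Six2, had 0.47 and 0.69 TPM, and the muscle enzyme gene Ckm 0.04 and 0.34 TPM. EYA phosphatase acts on the histone H2AX. Its gene H2afx had 345 and 331 TPM, the H2AX kinase gene Baz1b 55.1 and 55.0 TPM, and Mdc1, whose protein binds modified H2AX, 9.93 and 12.5 TPM. Isl1, Myog and Pax2 are also in the marker lists. These levels do not show what the 9 genes control.

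**Figure D5:**
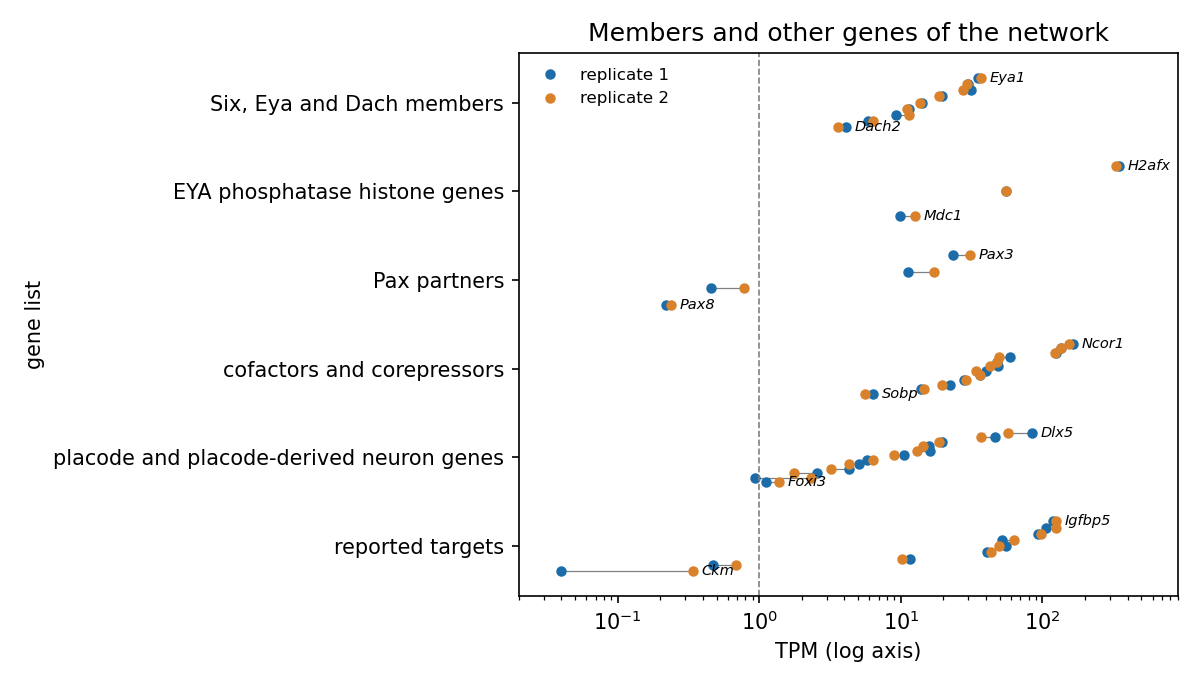
TPM (log axis) in replicate 1 and replicate 2 of the 9 genes and of the 5 lists of other network genes, with a thin line joining the 2 libraries of a gene and a dashed line at 1 TPM. Of the listed genes, 35 of 40 lie at or above 1 TPM in both libraries, and Pax2, Pax8, Gdnf and Ckm lie below it in both.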

How the data were processed

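Total RNA from 2 pools of facial prominences was sequenced. The deposited tables give, per the file headers, the expected count (estimated reads), TPM, the posterior mean of TPM and FPKM for each gene and transcript in each library, with credibility intervals of TPM at a level not given in the sources used here. Reads were aligned to mm10 and quantified with GENCODE M4, per the notes deposited with the tables. The deposited share of each transcript in percent was recomputed here from TPM. Neither the aligner nor the quantification tool nor strandedness is named in these notes or headers. Without strand, reads of a gene and of an antisense gene cannot be told apart.

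GENCODE M21, of the same build, named 42462 of 43346 mouse IDs and gave transcript types. Means ± SD are over 2 libraries. Ratios were taken on TPM within a library. Counting intervals are exact 95% binomial (Clopper-Pearson) on counts rounded to whole numbers. Spike-ins took 6.88% (replicate 1) and 7.57% (replicate 2) of TPM. The labels call the libraries biological replicates, each with its own number of pooled embryos. Python 3.11.15 with pandas 2.3.3 and scipy 1.17.1 was used, and edgeR 4.0.16 under R 4.3.3 for TMM scaling alone. The calculation of the difference between libraries was checked on simulated data with known differences. Alternatives covered the unit (posterior mean, FPKM, counts), pseudocount, thresholds, scaling (TMM, spike-ins), the set of transcripts and either library alone. The members and lists were chosen with earlier results of these data known. All 9 members were named, with the highest 3 and lowest 2 of each network list, except 1 listed gene that is not reported here by name. No genes were named for a like pattern, since 1 group gives none.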

Additional observations from a re-analysis of the deposited data

How the results depend on the processing

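The 9 genes at 1 TPM or more stayed 9 in the posterior mean and in FPKM, and were 8 at 5 TPM, where Dach2 fell out. Without spike-ins, at 0.5 TPM and in either library alone they also stayed 9, which the main result fixed in advance. The 40 network genes gave 34 to 36 at 1 TPM in these settings (31 at 5 TPM), against 35. The 4 called ratios became 4 or 5 under the posterior mean, a pseudocount of 1 TPM, counts not divided by length, either library alone (4 and 5), coding transcripts or transcripts of at least 1000 bases, the last 2 chosen after seeing the data. They became 8 at a threshold of 0.58. The same 4 were called in transcripts of at least 1000 bases, but Eya3 over Eya4 (1.001) barely passed 1, and Eya1 over Eya4 fell to 1.25. Counts not divided by length kept 1 of the 4 (Eya1 over Eya4), with 3 gained and 3 lost, and coding transcripts kept 3, with 2 gained. In counts not divided by length Six2 over Six4 turned to -0.26 and Eya3 over Eya4 came to 0.29, and in coding transcripts Eya3 over Eya4 turned to -0.66. The count of genes different between the libraries was 0 in each of 7 alternatives, and the leading transcript was the same in both libraries for 9 of 9 genes in each of 3. For the difference between libraries, a threshold of 1 or no minimum TPM could not have changed the 0. No paired analysis was possible because the series holds 1 group. Depth limits Dach2 most, with 197 counts in replicate 1.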
